A study of Sus scrofa with 48 samples.

Results

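Solute carriers are membrane proteins that move amino acids, sugars, ions, metals, vitamins and metabolites across the plasma membrane and the membranes of organelles, and they are numbered by family. In liver, they exchange nutrients and bile constituents between hepatocytes and blood, carry metabolites into and out of mitochondria and the endoplasmic reticulum, and deliver activated sugars and sulphate to the Golgi. Some need a partner protein, such as SLC7A9, the light subunit of an exchanger of cystine and dibasic amino acids, which works with the heavy subunit SLC3A1.

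The genes described here were all those whose name on the array has the form SLC, a family number, a letter and a number, apart from 7 genes left out by the rule. They were 242 of the 10900 named genes, with 436 of the 60305 different probes. A total of 197 of these genes had a tested probe, that is, one well above background on at least 12 of the 48 arrays, and each was represented by its brightest tested probe. Among them, 193 are carriers of 41 families, and 4 only share the start of the name, such as SLC9A3R1, a scaffold protein of the cell membrane. The largest families were SLC25, the mitochondrial carriers, with 27 tested members, and SLC35, the nucleotide sugar transporters of the Golgi and endoplasmic reticulum, with 15. Of the 45 genes that were not tested, 13 had no probe well above background on any array. These 13 included SLC12A1, the sodium-potassium-chloride cotransporter of the kidney, SLC15A1, the peptide transporter of the intestine, and SLC6A2, the noradrenaline transporter of neurons.

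Liver RNA was taken from 48 castrated male Large White pigs of lines selected in opposite directions for 8 generations on residual feed intake (RFI), the feed eaten beyond what growth and backfat predict. In each line, low RFI (RFIneg in the labels) and high RFI (RFIpl), 12 pigs received a high fat, high fiber (HF) diet and 12 a low fat, low fiber (LF) diet from 74 days of age, and liver was sampled at slaughter, 2 h after the last meal. The 4 groups were spread evenly over 6 slides of 8 arrays and over 2 scan dates. Each line is 1 population, so the effect of selection and chance differences between the lines cannot be told apart.

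All levels are log2 intensities relative to the median of the tested probes of the same array. They follow 1 probe across pigs and cannot rank genes by amount of RNA. Differences are log2 fold-changes (FC), low RFI minus high RFI for the line effect and HF minus LF for the diet effect. A gene was called when its P-value was under 0.01 and its FC over 1.1, with limma, and P-BH is the P-value adjusted over all 45236 tested probes. Between 65.8 and 77.2% of probes were well above background on an array. In whole liver, fewer cells of a type and less RNA per cell cannot be told apart. Of 69 tested markers from 11 lists of liver, blood, pancreas and fat cell types, 3 were called higher and 2 lower in low RFI pigs. Over all named genes tested, 3.42% were called higher and 3.27% lower. The summed level of the 7 tested hepatocyte markers ranged from 12.8 to 13.3 in the low and from 12.6 to 13.3 in the high RFI line.

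The sequences below are array probes of 60 bases, read from the scanner output and written 5′ to 3′ with no base marked. They are shown because, for SLC7A9, SLC15A2 (a proton-coupled peptide transporter) and SLC22A7 (an organic anion transporter of hepatocytes), probes with different sequences gave differences of similar size.
SLC7A9 probe A_72_P088796: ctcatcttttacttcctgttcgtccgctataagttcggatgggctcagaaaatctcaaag
SLC7A9 probe A_72_P538288: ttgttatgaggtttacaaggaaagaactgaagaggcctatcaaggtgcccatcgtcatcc
SLC15A2 probe A_72_P165106: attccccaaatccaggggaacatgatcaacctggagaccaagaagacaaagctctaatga
SLC15A2 probe A_72_P709561: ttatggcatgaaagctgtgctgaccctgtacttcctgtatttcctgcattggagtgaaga
SLC22A7 probe A_72_P223172: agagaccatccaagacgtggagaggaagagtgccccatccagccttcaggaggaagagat
SLC22A7 probe O6653: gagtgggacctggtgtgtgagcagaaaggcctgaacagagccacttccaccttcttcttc

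The first comparison addressed which carriers differed in the liver between the lines. Carriers of amino acids and peptides (SLC7A9, SLC15A2 and SLC1A5), of ions (SLC24A2, SLC12A4 and SLC4A11), of Golgi substrates (SLC35A5 and SLC35B2), of folate (SLC19A1) and of peroxisomal cofactors (SLC25A17) were over-expressed in low RFI pigs. The cationic amino acid transporter SLC7A1, the hexose transporter family member SLC2A6 and the UDP-galactose transporter SLC35A2 were under-expressed. The 10 genes called higher were 5.08% of the 197, beside 3.42% of the 9486 named genes tested, and the 3 called lower were 1.52%, beside 3.27%. At a P-BH of 5%, 6 members were higher and 1 was lower, 3.55% of the members beside 3.83% of the named genes. The share called higher was thus above and the share called lower below that of the named genes, and these differences were not tested. The share at a P-BH of 5%, with both directions together, was near theirs, and the results below are about single carriers. Over all members, 109 had a higher and 88 a lower mean in low than in high RFI pigs, and the median log2 FC was 0.011, beside 0.0061 for the named genes.

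**Figure D1:**
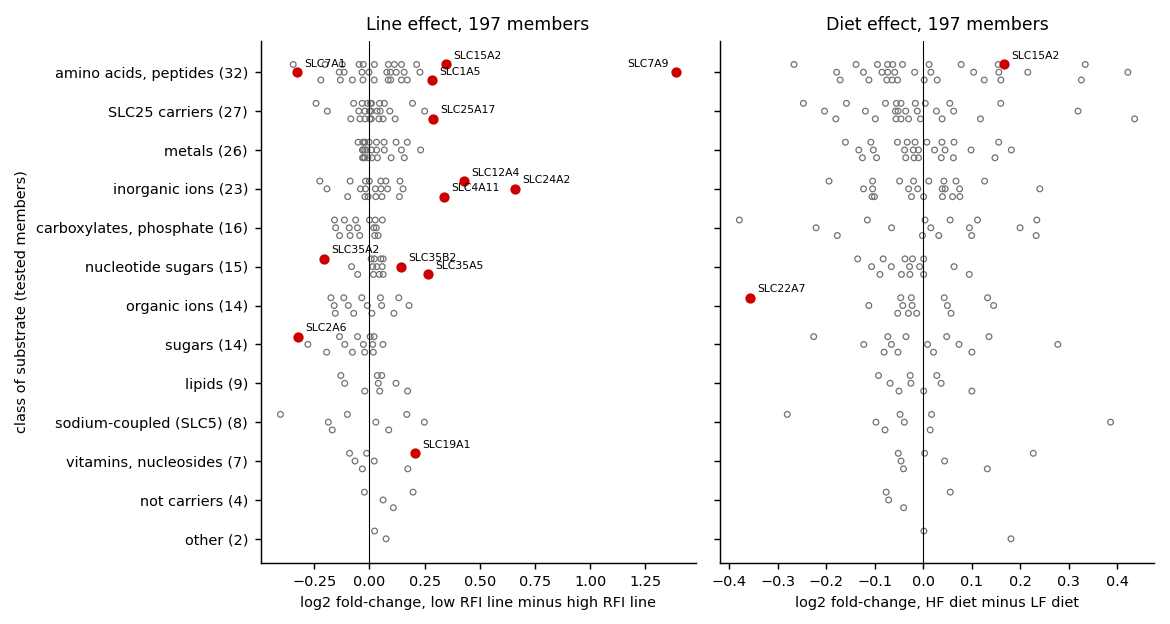
Line effect (low minus high RFI) and diet effect (HF minus LF) of the 197 solute carrier genes on the log2 scale, grouped by the kind of substrate, with 1 point per gene, called genes filled and named, the number of genes in parentheses and a horizontal axis of its own for each effect. Most points lie close to 0 in every class, and SLC7A9 stands farthest from 0 for the line effect with a log2 FC of 1.39.

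SLC7A9 had the largest line effect of the 197. Its level ran from 1.12 to 2.90 with a median of 1.82 in the 24 low RFI pigs, and from -1.72 to 2.25 with a median of 0.69 in the 24 high RFI pigs. All 24 low RFI pigs were above the high RFI median and 17 high RFI pigs were below every low RFI pig, while the other 7 overlapped with them. The log2 FC was 1.39 (SE 0.243, P = 7.23e-07, P-BH = 0.000191), which is a 2.62-fold over-expression. The SD was 0.372 in the low and 1.18 in the high RFI line, so the high RFI pigs were the more spread out. With the HF diet the medians were 1.86 in low and 0.73 in high RFI pigs, and with the LF diet they were 1.63 and 0.69, so the low RFI line had the higher median with both diets.

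The brightest SLC7A9 probe gave the values above, and the 2 others, printed earlier, gave log2 FC of 1.33 for A_72_P088796 (P = 3.78e-06, P-BH = 0.000615) and 1.29 for A_72_P538288 (P = 9.26e-07, P-BH = 0.000231). The low RFI pigs were higher on all 6 slides, and the log2 FC was 1.19 among the arrays of the first scan date and 1.59 among those of the second. For SLC3A1, the heavy subunit, the line effect was 0.15 (P = 0.363), which did not pass the test.

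SLC15A2 was also over-expressed in low RFI pigs. Its level had a lowest, median and highest value of -0.38, 0.05 and 0.52 in the low RFI line and of -0.69, -0.28 and 0.10 in the high RFI line. The ranges overlapped, but 22 of the 24 low RFI pigs were above the high RFI median. The log2 FC was 0.35 (SE 0.0594, P = 4.64e-07, P-BH = 0.000146), the low RFI line was higher on all 6 slides, and the second probe, A_72_P709561, gave 0.32 (P = 0.00047, P-BH = 0.0187). SLC15A4, the other peptide transporter tested, had a log2 FC of 0.02 (P = 0.70) and was not called.

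SLC7A1, which imports arginine, lysine and ornithine, went the other way. The lowest, median and highest level was -0.37, 0.17 and 0.61 in the low RFI line and -0.17, 0.55 and 1.15 in the high RFI line. The ranges overlapped, with 22 of 24 low RFI pigs below the high RFI median and the low RFI line lower on all 6 slides. The log2 FC was -0.33 (SE 0.0800, P = 0.000152, P-BH = 0.00830), from its single tested probe. SLC1A5, a glutamine and neutral amino acid exchanger, had levels of 2.06, 2.68 and 3.13 in the low RFI line and 1.81, 2.30 and 3.23 in the high RFI line, and 22 low RFI pigs were above the high RFI median. The log2 FC of SLC1A5 was 0.28 (SE 0.0872, P = 0.00219, P-BH = 0.0540), and the 3 other probes gave 0.17 to 0.43 with P of 0.0156 to 0.0899, none called. The 0.43 came from A_72_P309933, which was well above background on 36 arrays. With that probe the highest low RFI pig had 1.48, beside a low RFI median of -3.30. With the brightest SLC1A5 probe, the difference was 0.13 within the first scan date and 0.44 within the second, which passed the P-value threshold in the second alone.

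**Figure D2:**
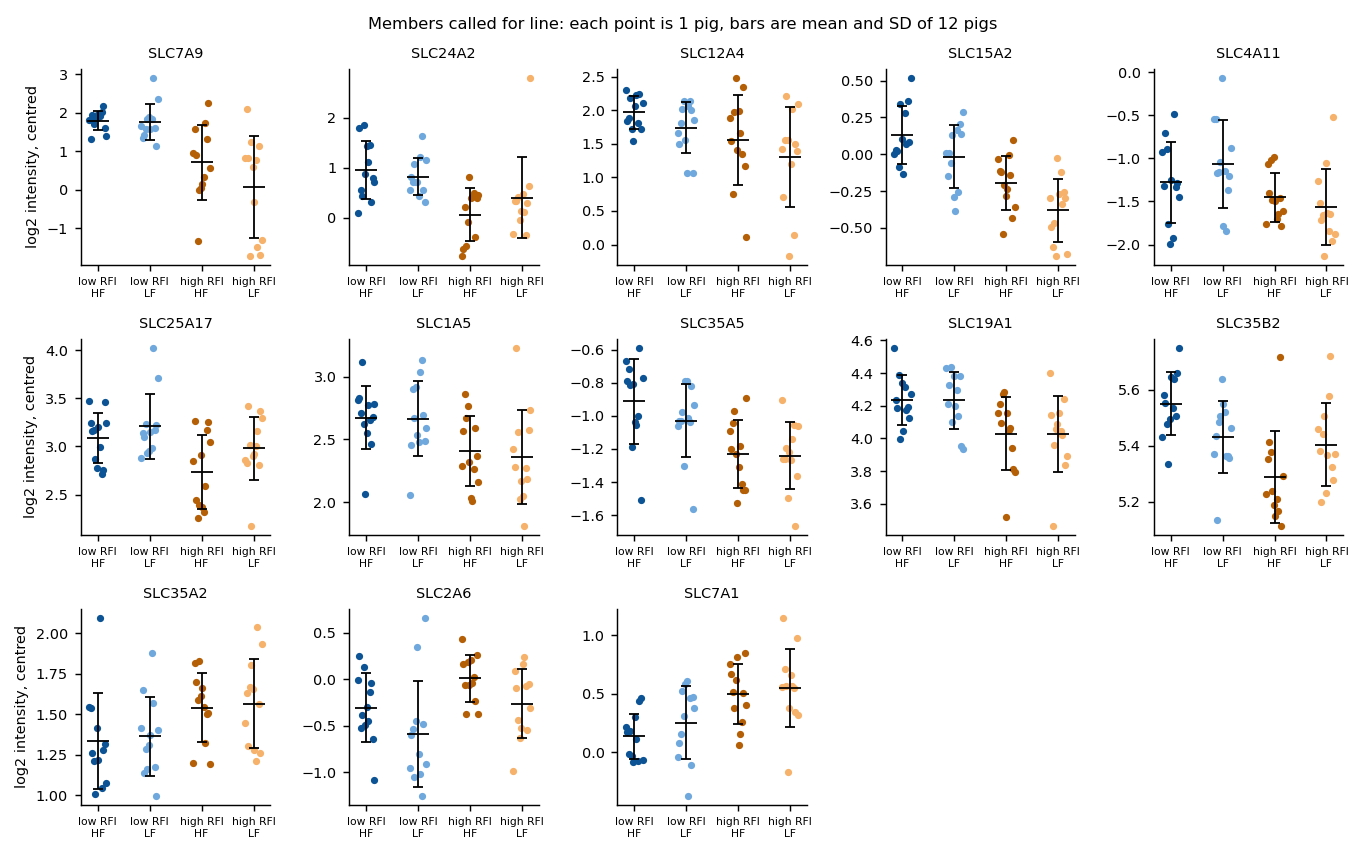
Level of the members called for line in each of the 48 pigs, as log2 intensity relative to the array median, by line and diet, with 1 point per pig and bars for the mean and SD of the 12 pigs of a group. Low and high RFI pigs overlap for every gene, and for SLC7A9 17 high RFI pigs lie below all low RFI pigs.

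The other 28 amino acid and peptide carriers tested were not called for line, where 3.42% of the named genes were called higher and 3.27% lower. Over the class of 32, 18 genes were higher and 14 lower in low RFI pigs, with a median log2 FC of 0.05. SLC38A2, a sodium-coupled neutral amino acid transporter, had a log2 FC of -0.35 (P = 0.161) from a probe not well above background on all 48 arrays. SLC38A4, the liver-rich relative of SLC38A2, had 0.11 (P = 0.324). SLC3A2, the heavy subunit shared by several SLC7 light subunits, had a log2 FC of -0.20 (P = 0.094), and SLC7A11, the cystine-glutamate exchanger that pairs with it, -0.22 (P = 0.062).

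Among the 15 SLC35 genes, 12 were higher and 3 lower in low RFI pigs, with a median log2 FC of 0.03. SLC35B2, which carries the sulphate donor PAPS into the Golgi, had levels of 5.14, 5.50 and 5.75 in the low RFI line and 5.12, 5.34 and 5.72 in the high RFI line. The ranges nearly coincided, although 22 of 24 low RFI pigs were above the high RFI median. The log2 FC was 0.15 (SE 0.0427, P = 0.00141, P-BH = 0.0401), and the 3 other probes gave 0.16 to 0.22. Among these probes, O11636 gave 0.22 (P = 4.91e-05, P-BH = 0.00368, limma). The log2 FC of SLC35B2 was 0.23 with normexp background correction and 0.22 with the deposited log2 values. Whether another SLC35B2 probe was the brightest in these alternatives was not tested. P-BH was 0.0765 with no filter on dim probes and 0.0589 without the interaction term. SLC35A5, a member with similarity to nucleotide sugar transporters, had levels of -1.56, -0.99 and -0.59 in the low and -1.66, -1.23 and -0.89 in the high RFI line. There, 21 low RFI pigs were above the high RFI median, and the log2 FC was 0.26 (SE 0.0647, P = 0.000169, P-BH = 0.00903) from its single tested probe, and 0.15 with normexp, where it was still called. SLC35A2 had levels of 1.0, 1.30 and 2.09 in the low and 1.19, 1.58 and 2.04 in the high RFI line, with 21 low RFI pigs below the high RFI median and a log2 FC of -0.20 (P = 0.00857, P-BH = 0.128). This call was lost with normexp (-0.18, P = 0.0102), with no filter on dim probes (-0.20, P = 0.0119) and within the second scan date (-0.13, P = 0.304).

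Of the 23 carriers of inorganic ions, 3 were called higher and 0 lower, where 3.42% and 3.27% of the named genes were, with 13 of the 23 higher in mean. SLC24A2, a potassium-dependent sodium-calcium exchanger known from neurons, had levels of 0.10, 0.76 and 1.86 in the low RFI line and -0.76, 0.31 and 2.80 in the high RFI line. The highest pig belonged to the high RFI line, yet 23 of 24 low RFI pigs were above the high RFI median, and the log2 FC was 0.66 (SE 0.167, P = 0.000266, P-BH = 0.0125). SLC12A4, a potassium-chloride cotransporter that regulates cell volume, had a log2 FC of 0.43 (P = 0.00795, P-BH = 0.123), with levels of 1.07, 1.87 and 2.30 in the low and -0.17, 1.52 and 2.48 in the high RFI line. For SLC4A11, a transporter known from the corneal endothelium, the log2 FC was 0.34 (P = 0.00823, P-BH = 0.125). Its levels were -2.0, -1.19 and -0.07 in the low and -2.13, -1.62 and -0.52 in the high RFI line, and its second tested probe gave -0.04 (P = 0.786). The SLC4A11 call was lost with normexp (0.18, P = 0.015), with the mean of all probes (0.15, P = 0.171) and within each scan date. The ranges of both genes overlapped between lines. The second SLC4A11 probe, O6497, was well above background on 39 arrays. Its mean was lower in low RFI pigs, but its median was higher, -3.16 beside -3.24 in high RFI pigs. The lowest low RFI pig had -6.27 with this probe.

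SLC19A1, the reduced folate carrier, had levels of 3.93, 4.22 and 4.55 in the low RFI line and 3.47, 4.06 and 4.40 in the high RFI line. Of the low RFI pigs, 20 were above the high RFI median, and the log2 FC was 0.21 (SE 0.0584, P = 0.000929, P-BH = 0.0302) with 0.33 (P = 0.0058) from the second probe. Of the 27 mitochondrial carrier genes, 17 were higher and 10 lower in low RFI pigs. SLC25A17 was the 1 called by its brightest probe, where 3.42% of the named genes were called higher and 3.27% lower. This member of the family lies in peroxisomes, where it carries coenzyme A, FAD and NAD. It had levels of 2.72, 3.15 and 4.02 in the low and 2.18, 2.91 and 3.42 in the high RFI line, with 19 low RFI pigs above the high RFI median. It was over-expressed with a log2 FC of 0.29 (P = 0.00364, P-BH = 0.0745), and the second probe gave 0.11 (P = 0.265). The SLC25A17 call was lost with the mean of all probes (0.20, P = 0.0348). It was also lost within the first (0.30, P = 0.0253) and the second scan date (0.28, P = 0.0506). SLC2A6 had levels of -1.25, -0.49 and 0.66 in the low and -0.99, -0.06 and 0.44 in the high RFI line. The log2 FC of the gene was -0.32 (P = 0.00779, P-BH = 0.121), but the second probe gave 0.05 (P = 0.464), so the 2 probes differed in direction. The SLC2A6 call was kept in 7 of 13 alternative analyses. It was lost with normexp (-0.21, P = 0.016) and with the deposited log2 values (-0.24, P = 0.0131). The mean of all probes (-0.14, P = 0.0437), slide as a block (-0.32, P = 0.0102) and each scan date alone also lost it.

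No member was called for line among the 26 carriers of metals, the 16 of carboxylates and phosphate, the 14 of organic ions and bile acids, the 9 of fatty acids and choline, or the 8 sodium-coupled SLC5 carriers. Over the named genes, 3.42% were called higher and 3.27% lower. In the metal class, 13 genes were higher and 13 lower, with a median log2 FC of 0.0040. Its largest difference was that of SLC41A2, a magnesium transporter, at 0.23 (P = 0.014). The iron importer SLC11A2 had a log2 FC of 0.12 (P = 0.285) and the copper importer SLC31A1 0.01 (P = 0.918). Over all 184 members that were not called, the log2 FC ranged from -0.40 to 0.25 with quartiles of -0.05 and 0.06. Among the 156 of these that were well above background on all arrays, it ranged from -0.28 to 0.25.

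The brightest probe stood for each gene, and 158 further probes were tested. Among these, 13 met the call for line, which is 8.23%, beside 6.91% of all tested probes in either direction, and 7 of them were from 7 genes whose brightest probe did not. These were SLC25A27, a mitochondrial uncoupling protein family member, with 0.32 (P = 5.99e-05, P-BH = 0.00421) beside 0.05 from its brightest probe, SLC7A2 with 0.46, SLC5A10 with 0.37, SLC35B3 with 0.17, SLC25A6 with 0.14, SLC1A1 with -0.30 and SLC39A14 with -0.36.

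Of the 13 members called for line, 8 had several tested probes, which had 1 direction in 6 of these genes. All 13 kept their direction within each scan date. SLC7A9 and SLC15A2 were called in all 13 alternative analyses, and SLC1A5, SLC24A2, SLC35A5, SLC7A1, SLC12A4, SLC19A1 and SLC35B2 lost the call only within 1 or both scan dates. For SLC7A1 there were 12 alternatives, because it had no value among the deposited log2 values analysed. Besides SLC1A5, the first and second dates gave -0.16 and -0.48 for SLC2A6, 0.87 and 0.45 for SLC24A2, -0.28 and -0.13 for SLC35A2, 0.41 and 0.27 for SLC4A11, and -0.41 and -0.25 for SLC7A1. They gave 0.40 and 0.45 for SLC12A4, 0.25 and 0.17 for SLC19A1, 0.27 and 0.26 for SLC35A5, and 0.12 and 0.17 for SLC35B2. No probe passed a P-BH of 5% for a line effect that differed between scan dates, and 5 members had P under 0.05 for it, 2.54% beside 3.44% of all tested probes. For a diet effect that differed between scan dates, 0 probes passed a P-BH of 5% with limma, and 6 members had P under 0.05, 3.05% beside 2.60% of all tested probes.

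The second comparison addressed the response of the carriers to the diets. SLC22A7 was under-expressed in the liver of pigs receiving the HF diet, and SLC15A2 was over-expressed. These 2 calls, 1 in each direction, were 0.508% of the members each, beside 2.07% of the named genes called higher and 2.26% called lower. With limma, 0 members passed a P-BH of 5%, beside 0.548% of the named genes, and 23 had P under 0.05, which is 11.7% of the members, beside 14.4% of all tested probes. The per-probe analysis of variance without moderation also gave 0 at a P-BH of 5%. With the HF diet, 87 members were higher and 110 lower, and the median log2 FC was -0.02, the same to 2 decimals as that of the named genes.

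SLC22A7 had a lowest, median and highest level of 3.62, 4.13 and 4.64 with the HF diet and of 3.33, 4.48 and 5.12 with the LF diet. The pig with the lowest level received the LF diet, but 22 of 24 HF pigs were below the LF median, and the HF pigs were lower on all 6 slides. The log2 FC was -0.36 (SE 0.0953, P = 0.00048, P-BH = 0.0643), and the second probe, O6653, gave -0.31 (P = 0.00701). It was -0.20 (P = 0.173) within the first scan date and -0.51 (P = 0.000329) within the second. The other 13 carriers of organic ions and bile acids, among them the bile acid carrier SLC10A2 at -0.04 (P = 0.491), were not called for diet. Over the named genes, 2.07% were called higher and 2.26% lower for diet.

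SLC15A2, called for both line and diet, had levels of -0.54, -0.02 and 0.52 with the HF diet and -0.69, -0.26 and 0.28 with the LF diet. The ranges overlapped, and 20 of 24 HF pigs were above the LF median. This difference had a log2 FC of 0.17 (SE 0.0594, P = 0.00757, P-BH = 0.179), with HF higher on 6 of 6 slides, and the second probe gave 0.15 (P = 0.0858). The call was kept in 9 of 13 alternative analyses, and the difference was 0.17 (P = 0.038) within the first scan date and 0.16 (P = 0.101) within the second. SLC3A1 had a diet difference of 0.33 (P = 0.0452), and its 3 other probes gave 0.33 to 0.37, none of which met the call. Of the 158 further probes, 7 met the call for diet, which is 4.43%, beside 4.61% of all tested probes, and 6 of them were from 4 genes whose brightest probe did not. These genes were SLC5A10 (-0.43 and -0.41), SLC30A9 (-0.27), SLC16A7 (0.32) and SLC25A6 (0.14 and 0.17).

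**Figure D3:**
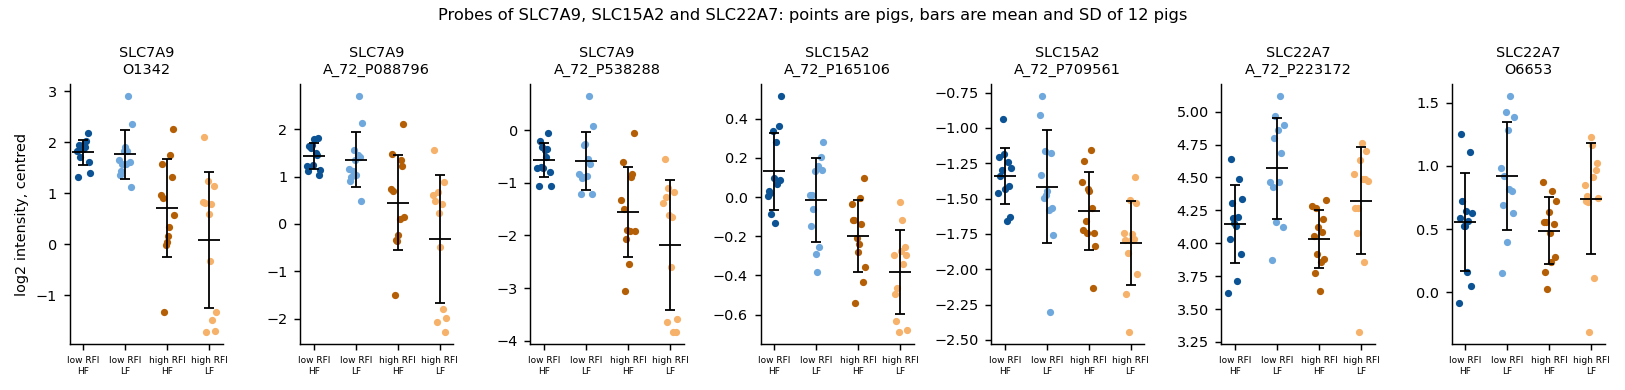
Levels of all 7 tested probes of SLC7A9, SLC15A2 and SLC22A7 in each of the 48 pigs, as log2 intensity relative to the array median, by line and diet, with 1 point per pig and bars for the mean and SD of 12 pigs. Probes of 1 gene show the groups in a similar order, with diet log2 FC of -0.36 and -0.31 for the 2 SLC22A7 probes.

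The third comparison asked whether the line effect depended on the diet. SLC35B2 was called, with a line effect 0.24 larger with the HF than with the LF diet on the log2 scale (SE 0.0855, P = 0.00841, P-BH = 1.0). It was 0.508% of the members, beside 0.105% of the named genes called higher. Its median level was 5.54 in low RFI pigs with HF, 5.45 in low RFI pigs with LF, 5.23 in high RFI pigs with HF and 5.38 in high RFI pigs with LF, so the high RFI pigs with HF were lowest, and all 4 ranges overlapped. The 3 other probes gave 0.08 to 0.14 (P of 0.159 to 0.556), none called. The call was kept in 5 of 12 alternative analyses and lost, among others, with slide as a block (0.24, P = 0.0104). The value was 0.12 within the first scan date and 0.35 within the second. Of the members, 0 were called lower, beside 0.2% of the named genes. At a P-BH of 5%, limma gave 0 members, beside 0% of the named genes, and 2 members had P under 0.05, 1.02% of the members beside 2.37% of all tested probes. The other of these was SLC5A1, the sodium-glucose cotransporter, with -0.41 (P = 0.0106), and its 4 other probes gave -0.23 to 0.26.

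Probes of SLC7A2, a cationic amino acid transporter of hepatocytes, differed from each other in the line effect, a comparison chosen after their values were seen. They share 59 of their 60 bases, and the stretch from position 12 to 40, counted from 1 at the 5′ end of the probe, is shown with the base that differs in capitals because it is the 1 base by which the probes differ (G26A from the brighter probe O1139 to A_72_P077491).
SLC7A2 probe O1139: gatcccaagcctccGtgtttgaaaaatca
SLC7A2 probe A_72_P077491: gatcccaagcctccAtgtttgaaaaatca

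With O1139, the brighter probe, the lowest, median and highest level was 4.37, 5.31 and 5.97 in the low RFI line and 4.24, 5.10 and 6.01 in the high RFI line, and the log2 FC was 0.09 (P = 0.493). With A_72_P077491, the levels were 4.31, 4.91 and 5.67 in the low and 3.49, 4.56 and 5.44 in the high RFI line, and the log2 FC was 0.46 (P = 0.00046, P-BH = 0.0185). The lines thus differed with 1 of the probes and not detectably with the other.

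The difference between the probes in each pig (A_72_P077491 minus O1139) fell into 3 separate ranges. In 24 pigs it was -1.01 to -0.65, in 20 pigs -0.32 to -0.12 and in 4 pigs 0.31 to 0.38. The gaps between these ranges were 0.33 and 0.44, and the next largest gap between neighbouring pigs was 0.0375. The lowest range held 7 low and 17 high RFI pigs, the middle 13 low and 7 high, and the highest 4 low and 0 high. The mean difference was -0.31 ± 0.384 (SD, n = 24) in low RFI pigs and -0.68 ± 0.313 (SD, n = 24) in high RFI pigs, 0.37 apart, which restates the unequal line effects for which the pair was chosen and is given with no test. By diet it differed by -0.06. Its SD over the pigs was 0.395, whereas the 12 probe pairs of identical sequence among the members had an SD of 0.073 to 0.316. The base each pig carries was not measured, and the cause of the 3 ranges was not tested.

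**Figure D4:**
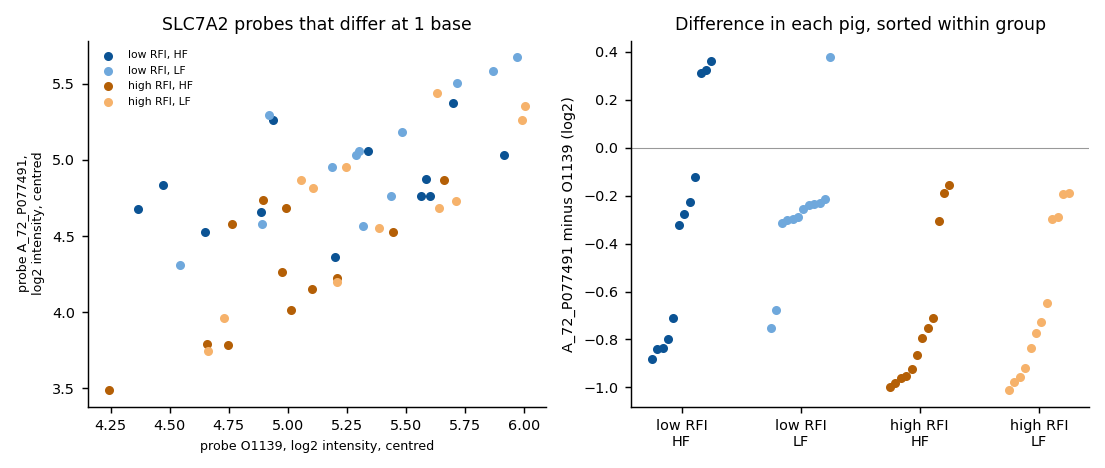
Left, level of the SLC7A2 probe A_72_P077491 against that of O1139, and right, the difference between them sorted within each group, on the log2 scale, with 1 point for each of the 48 pigs coloured by line and diet. The differences fall into 3 ranges of 24, 20 and 4 pigs, and the 4 pigs of the highest range are all from the low RFI line.

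Carriers with a known role in hepatocytes were taken from a list of 47, of which 30 were tested. In the low RFI line, 19 of these were higher and 11 lower with a median log2 FC of 0.02, and with the HF diet 13 were higher and 17 lower with a median of -0.03. SLC19A1 was the 1 called for line, where 3.42% of the named genes were called higher and 3.27% lower, and SLC22A7 the 1 called for diet, where 2.07% were called higher and 2.26% lower. SLC27A5, which joins bile acids to coenzyme A, had a line effect of 0.04 (P = 0.573), and SLC27A2, a fatty acid transport protein, -0.13 (P = 0.374). The carnitine-acylcarnitine carrier SLC25A20 had a line effect of 0.25 (P = 0.0363), and the citrate carriers SLC13A5 of the plasma membrane and SLC25A1 of mitochondria -0.15 (P = 0.228) and 0.0019 (P = 0.986). For diet, SLC16A10, a transporter of aromatic amino acids, differed by -0.38 (P = 0.0137) and SLC7A2 by -0.27 (P = 0.037), and neither met the call.

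The 10 carriers with the brightest probes varied little between pigs, except for 1. SLC37A4, which brings glucose-6-phosphate into the endoplasmic reticulum, had a mean level of 9.93 ± 0.144 (SD, n = 48). The others were SLC2A11, SLC39A14 (zinc, iron and manganese import), SLC39A5 (zinc import), SLC25A4 and SLC25A6 (mitochondrial ADP and ATP exchange), SLC4A2 (chloride-bicarbonate exchange), SLC27A5, SLC5A6 (sodium-dependent multivitamin transport) and SLC25A39 (mitochondrial glutathione import). None of the 10 was called for line or diet, with log2 FC from -0.17 to 0.12 for line and from -0.16 to 0.12 for diet. The named genes had 3.42% called higher and 3.27% lower for line, and 2.07% higher and 2.26% lower for diet. Of the 4 SLC39A14 probes, 1 had a line effect of -0.36 (P = 0.0086), while the others lay between -0.06 and 0.08.

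The spread between pigs that line and diet left over, the residual SD, had a median of 0.281 over the members, beside 0.254 over the named genes. Among members above background on all 48 arrays, it was highest for SLC25A33, a mitochondrial carrier of pyrimidine nucleotides, at 0.909, with levels of -3.52, -1.93 and 0.33 as lowest, median and highest. SLC7A9 followed at 0.864 and then SLC5A6 at 0.658, with levels of 5.44, 6.83 and 7.92. The ornithine carrier SLC25A15, part of the urea cycle, had 0.638 with levels of 4.05, 5.64 and 6.49, and the GABA transporter SLC6A11 had 0.607 with levels of 0.03, 2.51 and 3.19. SLC7A9 was the 1 of these 5 called for line. By class, the median residual SD was 0.399 for carriers of amino acids and peptides and 0.222 for those of nucleotide sugars.

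**Figure D5:**
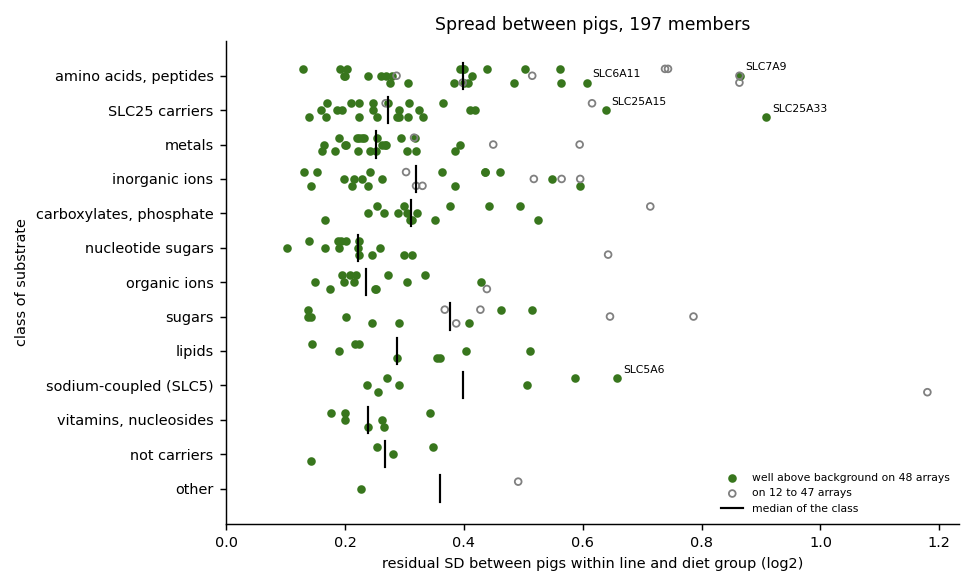
Residual SD between pigs after the means of the 4 groups, on the log2 scale, for each of the 197 solute carrier genes by class, with filled points for genes well above background on all 48 arrays, open points for the others and a line at the class median. SLC25A33 is the highest filled point at 0.909, and the nucleotide sugar class has a median of 0.222.

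Markers of the cell types a liver sample can hold were set beside these results. In low RFI pigs, 9 of 10 tested markers of Kupffer cells and macrophages were lower in mean, with a list median of -0.18 on the log2 scale and summed levels of 7.49 to 8.61 in the low and 7.78 to 8.72 in the high RFI line, and none was called. In the same comparison, 8 of 8 endothelial, 8 of 9 stellate cell and fibroblast, 6 of 7 hepatocyte, 3 of 4 erythroid and 3 of 5 adipocyte markers were higher in mean. Lower in mean were 5 of 7 cholangiocyte, 6 of 11 T and NK cell, 3 of 3 B and plasma cell and 3 of 4 neutrophil markers. The 5 markers called for line were APOA1 of hepatocytes (0.15), RGS5 of the stellate cell and fibroblast list (0.87) and PNLIP of the exocrine pancreas (0.45), all higher in low RFI pigs, and CD247 of T cells (-0.28) and KRT7 of cholangiocytes (-0.35), both lower. PNLIP, the 1 tested of 5 pancreas markers, had a mean level of -3.94 and was well above background on 20 arrays. Over the named genes, 3.42% were called higher and 3.27% lower for line. With the HF diet, 9 of 10 Kupffer cell and macrophage and 7 of 7 cholangiocyte markers were higher in mean, and 7 of 7 hepatocyte and 4 of 4 erythroid markers were lower. CD247 was the 1 marker called for diet (0.40 higher with HF), where 2.07% of the named genes were called higher and 2.26% lower. The other T and NK cell markers went both ways. The part of other cells in the differences reported here was not tested.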

How the data were processed

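Liver RNA of 48 pigs was labelled with 1 dye and hybridised to custom porcine Agilent arrays. The scanner files deposited by the authors hold 1 background-subtracted intensity per spot (the processed signal), with flags for outliers, saturation and signal well above background. The authors also deposited a table of 37379 probes as log2 values, which equals log2 of the median signal minus a constant per array, without background subtraction, and was used as an alternative. The authors worked in R 2.10.0.

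For the values reported, log2 of the processed signal was taken, 483 spots called outliers were set to missing (limma fitted such probes on the other arrays), and each array was centred on the median of its tested probes. Probes well above background on fewer than 12 arrays were left out, and 45236 were fitted with line, diet and their interaction in limma 3.58.1 (R 4.3.3), with Benjamini-Hochberg adjustment over all of them. No spot was saturated. The thresholds of P and FC follow the study's methods. The script was tested on simulated data. Arrays carry no read depth, and their number limits the precision. Gene names are those of the array, and all 159 member probes whose accession is in the RefSeq table (Sscrofa11.1) had the same symbol there.

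Named were members called for line, diet or interaction, the 10 brightest, the 5 with the largest residual SD, and members of the hepatocyte list. Other genes named as not called, SLC7A2's second probe and single probes of other genes were chosen after their values were seen. The members, lists and tests were chosen with earlier results of these data known. The alternatives were 13 in number.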

Additional observations from a re-analysis of the deposited data

How the results depend on the processing

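The number of members called higher in the low RFI line was 10, and 6 with the first scan date alone and 4 with the second. The number called lower was 3, and 1 with normexp background correction and 1 with the second scan date alone. At a P-BH of 5%, 7 members passed for line, and 2 in each scan date alone, which has 24 arrays in place of 48. For diet, the 1 call with HF higher became 2 with quantile normalization, 3 with normexp, 3 with the deposited log2 values and 0 with the second scan date alone. With normexp, SLC15A2 was not called (0.11, P = 0.011), so the 3 were other genes. The count stayed 1 with the first scan date alone and with the mean of all probes. There, too, SLC15A2 was not called (0.17, P = 0.038, and 0.16, P = 0.0134). The 1 call with HF lower became 2 with 75th percentile centring, quantile normalization, normexp, only probes well above background on all arrays, no filter on dim probes, no interaction term, or the mean of all probes of a gene. It became 3 with slide as a block and 0 with the first scan date alone. The 1 interaction call became 0 with normexp, the deposited log2 values, no filter, slide as a block, either scan date alone, or the mean of all probes. Whether another SLC35B2 probe was the brightest with normexp or the deposited values was not tested. Beyond the smaller number of arrays within a scan date, the cause of these changes was not tested. The counts have no share of all named genes under the same alternative beside them. Whether the named genes changed alike was not tested. Of 206 values of the named members under the 13 alternatives, 168 kept their call, 38 kept the direction and lost it, and 0 turned. Under all 13, SLC7A9 and SLC15A2 were called for line. No paired analysis was possible because the labels give every pig the same replicate number. Dim probes limit the members, since 45 of 242 could not be tested.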

Other observations

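SLC5A10, a sodium-coupled sugar transporter, was represented by its brightest probe, with a diet difference of -0.04 on the log2 scale (P = 0.786, limma). The 2 other probes, identical in sequence, had differences of -0.43 (P = 0.000952, P-BH = 0.0865) and -0.41 (P = 0.00182, P-BH = 0.111) for HF minus LF, and line differences of 0.37 (P = 0.00391) and 0.30 (P = 0.0224). These probes were chosen after their values were seen.

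For diet, 2 further members had P under 0.01 with an FC under 1.1, and they were chosen after their values were seen. SLC4A1, the anion exchanger of red blood cells, was lower with HF by a log2 FC of -0.12 (P = 0.00747), beside a median of -0.37 for the 4 tested erythroid markers, none of which was called. SLC35C2, related to nucleotide sugar transporters, had a log2 FC of -0.14 (P = 0.00915).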
